A study of Mus musculus with 20 samples.

Results

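Mouse tenocytes after 6 h of insulin-like growth factor 1 (IGF1) were compared with those after 1 h, gene by gene. Tenocytes are the fibroblast-like cells that make and maintain tendon. The comparison uses 8 of the 20 RNA sequencing libraries of a time course: 4 libraries labelled 1 h and 4 labelled 6 h. Both groups carry the same labels apart from time: cells from the tail tendon of adult C57Bl/6 animals, described as wild type, given recombinant IGF1 at 100 ng/mL. The libraries at 0 h (untreated), 2 h and 24 h appear only as levels set beside those of the 8. Those at 2 h were known from earlier results to be uneven, a limit on every 2 h mean given below. The labels do not say whether replicates came from separate mice or separate cultures, so p-values measure only the spread between these libraries. No untreated culture kept for 6 h was analysed here, so time in culture and time with IGF1 cannot be told apart.

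IGF1 binds a receptor tyrosine kinase that signals through the ERK kinases and through PI3 kinase, AKT and mTORC1. In growth factor responses in general, immediate early genes are transcribed within minutes without new protein and decline quickly. Genes of growth, metabolism and DNA replication follow over hours. AKT also holds the FoxO transcription factors out of the nucleus, and mTORC1 raises Hif1a and Atf4 activity. In tendon, IGF1 is known as a growth factor for matrix synthesis and tenocyte proliferation.

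Depth was similar in both groups. Total counts ranged from 15850304 to 22687173 per library at 1 h and from 17017386 to 20429931 at 6 h. The mitochondrial share of the counts was 1.36% to 1.68% at 1 h against 1.38% to 1.55% at 6 h. The leading principal component, with 50.8% of the variance of the 8 libraries, separated the groups. The next, with 11.8%, set 1 h replicate 4 apart. The tenocyte transcription factors Scx and Mkx, the tendon membrane protein Tnmd and both type I collagen genes were present in all 8 libraries. Pairs of replicates differed by more than sampling noise (chi-square per degree of freedom 4.45 to 9.82), so each library was counted once.

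Of 13550 genes tested, 6028 (44.5%) differed between 6 h and 1 h at an adjusted p under 0.05 (edgeR quasi-likelihood test, Benjamini-Hochberg adjustment). The split was nearly even: 3060 genes (22.6%) were higher at 6 h and 2968 (21.9%) were lower. Large differences were fewer. A difference of 2-fold or more was seen in 194 called genes (1.43% of those tested) toward higher levels and in 296 (2.18%) toward lower levels. The median log2 fold change of all genes tested was 0.000309, on the scale of 6 h minus 1 h used throughout. Levels below are counts scaled to library size with TMM factors (CPM), given as mean ± SD over 4 libraries, and differences are log2 fold changes ± SE. CPM are not corrected for gene length, so they rank samples for a gene and not genes against each other. Where few members of a list moved one way they are all named, and 39 genes outside the naming rule were so chosen after their values were seen. In bulk RNA, fewer cells of a type and less RNA per cell cannot be told apart.

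**Figure D1:**
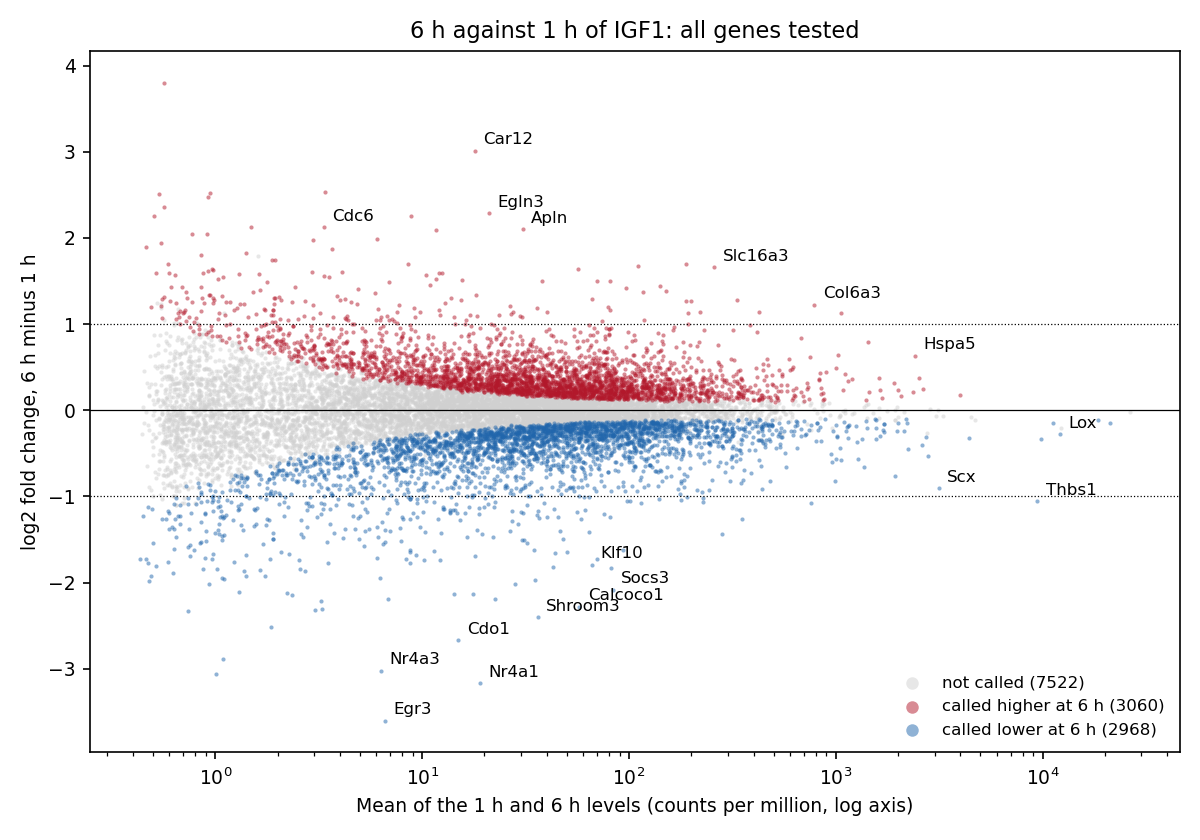
Each point is 1 of the 13550 genes tested, placed by its mean level at 1 h and 6 h (CPM, log axis) and its log2 fold change from 1 h to 6 h; red and blue mark the 3060 higher and 2968 lower genes, and dotted lines mark 2-fold. The points furthest below 0 among the labelled genes are Egr3, Nr4a1 and Nr4a3 (-3.60 to -3.02), and Car12 (3.01) lies furthest above.

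Transcription factors of the immediate early class were mostly lower at 6 h than at 1 h. Of 33 tested, 24 fell (72.7%, against 21.9% of all genes tested), 12 of them at least 2-fold. Their median log2 fold change was -0.61. Egr3, a zinc finger transcription factor of the early growth response family (chr14:70077203-70082614, mm10), measured 12.2, 9.87, 12.4 and 14.2 CPM in the 1 h libraries and 1.03, 0.525, 1.51 and 0.89 CPM in the 6 h libraries. The groups lay far apart, and the log2 fold change of -3.60 ± 0.20 was the largest fall by the naming rule (adjusted p = 1.89e-12). Before IGF1 its level was 2.39 ± 0.467 CPM. Nr4a1 (chr15:101254269-101274795), an orphan nuclear receptor, read 36.6, 32.8, 31.7 and 36.4 CPM at 1 h. At 6 h it read 3.88, 3.73, 4.26 and 3.40 CPM, below every 1 h library and below the 0 h mean of 12.4 ± 1.38 CPM. Its difference was -3.17 ± 0.10 (adjusted p = 7.29e-17). Nr4a3, a second receptor of the same family, went from 8.36, 10.3, 12.8 and 13.5 CPM to 1.67, 1.11, 1.94 and 0.785 CPM (-3.02 ± 0.22, adjusted p = 6.05e-10).

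Arc, an immediate early gene best known from neurons, stood at 21.2, 23, 23.7 and 24.8 CPM at 1 h and at 3.83, 5.19, 7.22 and 5.02 CPM at 6 h, a change of -2.13 ± 0.13. Its 2 h mean was still 19.3 ± 6.48 CPM. Hes1, a transcriptional repressor and Notch effector, gave 47.3, 48.2, 41.2 and 43.0 CPM and then 10.7, 13.0, 9.86 and 10.9 CPM, without overlap (-2.02 ± 0.087, adjusted p = 8.70e-15). Klf10, a Krüppel-like factor, was 97.3, 106, 105 and 104 CPM at 1 h and 25.3, 29.1, 35.0 and 29.8 CPM at 6 h. Its 2 h mean was 36.2 ± 3.93 CPM. Egr2, of the same family as Egr3, was 9.63 ± 1.76 CPM at 1 h, 9.30 ± 2.09 CPM at 2 h and 3.29 ± 1.14 CPM at 6 h. With uneven 2 h libraries, the order of these falls was not tested. The fall from 1 h to 6 h was 1.79 ± 0.072 for Klf10 and 1.55 ± 0.20 for Egr2 on the log2 scale, both called. Not every member fell. Klf6 (0.47 ± 0.061), Nfil3 (0.46 ± 0.10) and Myc (0.29 ± 0.06) rose. Fos, whose protein pairs with Jun in AP-1, did not pass the test: 4.36, 3.92, 4.27 and 5.46 CPM at 1 h against 3.93, 4.08, 8.14 and 5.70 CPM at 6 h (0.28 ± 0.20, adjusted p = 0.281). Jun was likewise not called (0.02 ± 0.065).

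**Figure D2:**
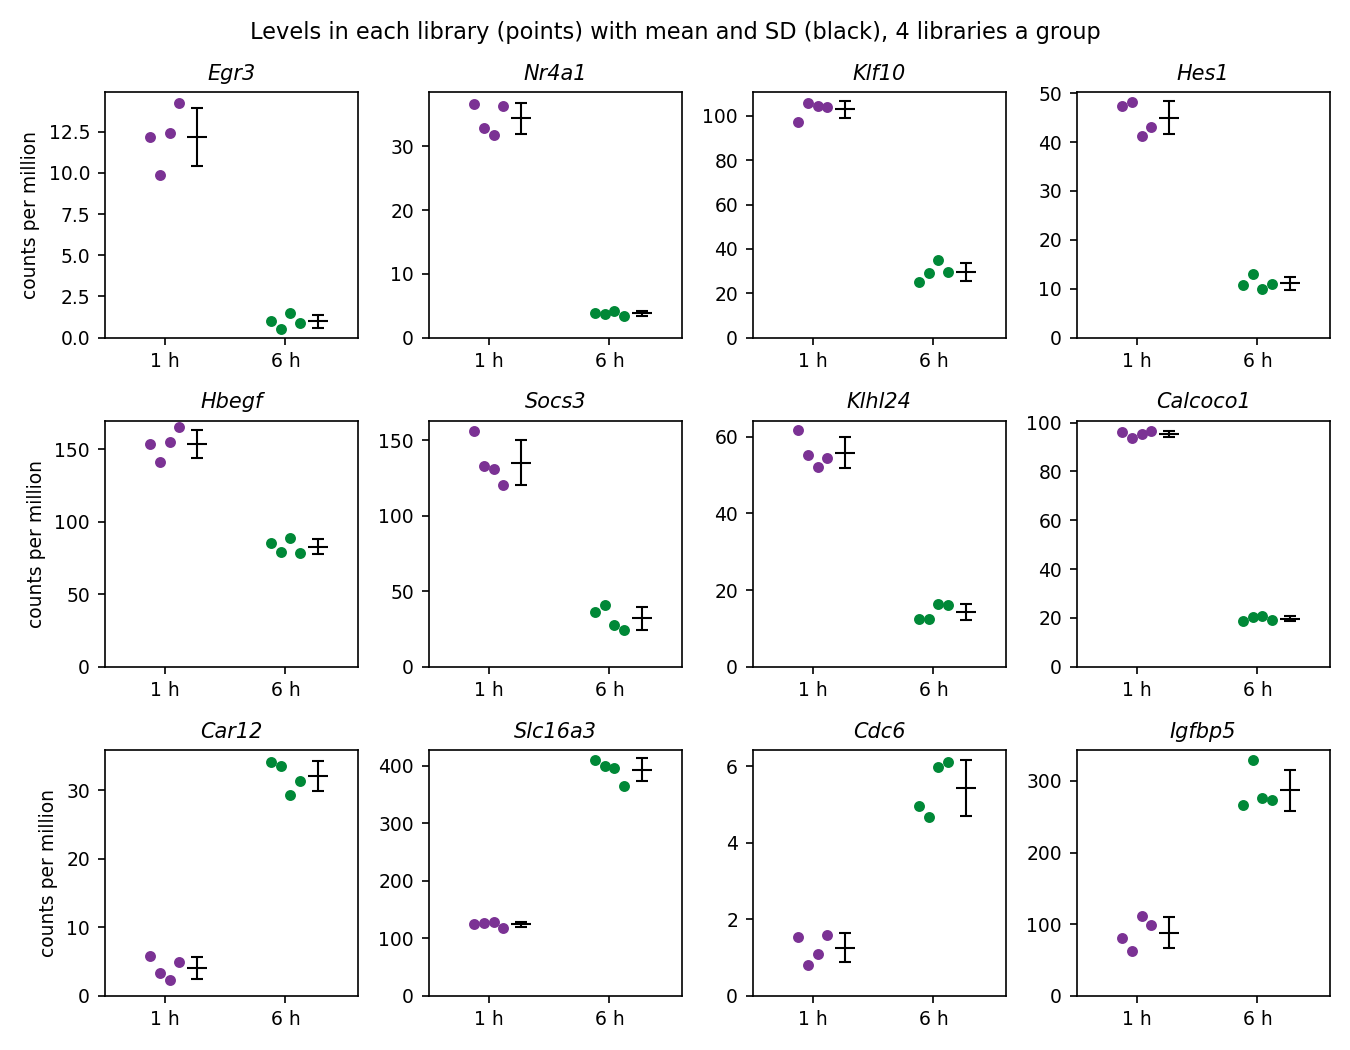
Points are the levels (CPM, linear axes from 0) of 12 genes in each of the 4 libraries at 1 h (purple) and 6 h (green), with the group mean and SD in black. In none of the 12 panels do the groups overlap; Egr3 spans 9.87 to 14.2 CPM at 1 h and 0.525 to 1.51 CPM at 6 h, while Car12 spans 2.27 to 5.83 and 29.3 to 34.1 CPM.

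Among 17 regulators that act back on the ERK pathway, 7 fell, 2 rose and 8 were not called, with a median of -0.15. The shares that fell and rose were 41.2% and 11.8%, against 21.9% and 22.6% of all genes tested. Errfi1, an inhibitor of the EGF receptor, went from 77.0 ± 7.60 CPM to 41.4 ± 6.07 CPM, and Spry4, a Sprouty inhibitor of receptor tyrosine kinase signalling, from 28.0 ± 1.81 CPM to 15.2 ± 0.436 CPM. The differences were -0.90 ± 0.095 and -0.89 ± 0.08. Phlda1 (-0.75 ± 0.13), Dusp4 (-0.70 ± 0.20) and Dusp5 (-0.62 ± 0.16) fell too, the last 2 being phosphatases of MAP kinases. The call of Dusp4 was lost with all 20 libraries in the fit. In Dusp5 the groups overlapped, since 6 h replicate 3 read 10.02 CPM and 1 h replicate 3 read 8.68 CPM. Dusp8, a further phosphatase of the family (0.62 ± 0.11), and the Sprouty gene Spry2 (0.55 ± 0.073) rose. All 3 tested ligands of the EGF receptor fell. Hbegf measured 154, 141, 155 and 165 CPM at 1 h and 85.4, 79.2, 88.7 and 78.6 CPM at 6 h. Ereg went from 71.3 ± 7.76 CPM to 37.1 ± 2.68 CPM, and Tgfa from 4.46 ± 0.734 CPM to 2.22 ± 0.581 CPM. These were differences of -0.89 ± 0.055, -0.94 ± 0.074 and -1.0 ± 0.21, while the receptor gene Egfr rose by 0.25 ± 0.053.

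In the Notch pathway, 4 of 7 tested members fell (57.1%, against 21.9% of all genes tested) and none rose. Apart from Hes1 these were Lfng, a glycosyltransferase that modifies Notch, with 13.2 ± 2.03 CPM at 1 h and 4.23 ± 0.424 CPM at 6 h (-1.64 ± 0.14), the receptor Notch1 (-1.14 ± 0.15) and Notch2 (-0.13 ± 0.051). The Notch2 groups overlapped and its call was lost in 8 alternatives. Notch1 shares 10.2% of its exonic bases with a gene on the opposite strand, and whether counting used strand is not given.

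Of 20 chemokine, cytokine and NF-kB genes, 12 fell and 4 rose, with a median of -0.29. These were 60.0% and 20%, against 21.9% and 22.6% of all genes tested. Lif, a cytokine of the interleukin 6 family, gave 21.1, 18.7, 15.9 and 16.1 CPM at 1 h and 6.13, 5.6, 6.84 and 8.16 CPM at 6 h (-1.42 ± 0.13, adjusted p = 2.83e-09), a level close to the 6.96 ± 0.49 CPM at 0 h. The chemokines Cxcl1 (-0.90 ± 0.17) and Ccl7 (-0.71 ± 0.052), the NF-kB subunit Relb (-0.84 ± 0.088) and Il11 (-0.67 ± 0.21) fell as well. The call of Il11 was lost with all 20 libraries in the fit. Ccl7 was 145 ± 9.99 CPM at 1 h and 88.3 ± 2.62 CPM at 6 h. The chemokine Ccl11 rose from 1.08 ± 0.431 CPM to 2.05 ± 0.604 CPM, with overlapping groups and a call that was lost in 4 alternatives. Tnfaip3, an inhibitor of NF-kB signalling (0.49 ± 0.13), the adhesion molecule Vcam1 (0.42 ± 0.053) and the prostaglandin synthase Ptges (0.35 ± 0.078) rose too. Socs3, which blocks signalling of cytokine receptors and is in none of the lists, was 156, 133, 131 and 120.4 CPM at 1 h and 36.0, 40.6, 27.3 and 24.0 CPM at 6 h (-2.08 ± 0.18, adjusted p = 9.63e-05).

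Transcripts of this kind often carry AU-rich elements in the 3′ untranslated region, which shorten their life. The core TATTTAT was searched in GENCODE transcripts, on the transcribed strand. It was present in 29.6% of 12385 protein-coding genes tested, in 41.0% of those that fell by 2-fold or more and in 33.1% of those that rose as much. The 5 genes below fell and show how it lies in its surroundings, 30 bases each, with the core in capitals.
Nr4a3: ttatattgtaatagctttgcctgTATTTAT
Socs3: ctcagactttgcacataTATTTATATTTAT
Klf10: gttacagatggacagtgtcttttTATTTAT
Lif: gctgtcTATTTATtactatgtccTATTTAT
Cxcl1: agggtccTATTTATTTATgTATTTATTTAT
The stretch of Cxcl1 holds 4 copies in 2 runs, those of Lif and Socs3 hold 2 each, and those of Nr4a3 and Klf10 hold 1 each. The transcripts chosen for Egr3 and Nr4a1, with the largest falls, hold no copy of these 7 letters. These are matches of letters, not measured sites.

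Other leading falls were in genes whose mean at 1 h was no higher than at 0 h. Cdo1, the enzyme that oxidises cysteine, measured 25.8, 22.6, 28.2 and 26.7 CPM at 1 h and 3.88, 4.08, 4.74 and 3.61 CPM at 6 h (-2.67 ± 0.11, adjusted p = 5.25e-15). Its 0 h level was 26.8 ± 3.75 CPM, about that of 1 h. Shroom3, an actin-binding regulator of cell shape, went from 68.8, 61.8, 64.2 and 49.3 CPM to 13.2, 10.5, 13.3 and 9.26 CPM, a fall by 2.40 ± 0.13 on the log2 scale. Calcoco1, described as a coactivator and an autophagy receptor, had tight groups of 96.3, 93.6, 95.4 and 96.5 CPM and 18.7, 20.4, 20.6 and 18.9 CPM (-2.28 ± 0.059, adjusted p = 1.56e-18). At 24 h it stood at 66.4 ± 0.742 CPM. Ypel1, a small conserved protein of unclear function, fell by 2.30 ± 0.22, and 5.26% of its exonic bases overlap Ppil2 on the other strand. Fam169b (-2.32 ± 0.23), the transporter-family genes Abca6 (-2.22 ± 0.24) and Nipal3 (-2.19 ± 0.15), and Tek, the receptor for angiopoietins (-2.19 ± 0.14), had like differences. The 1 h and 0 h levels of Tek were 37.1 ± 2.94 CPM and 38.6 ± 1.46 CPM, and its 6 h level was 8.09 ± 2.20 CPM.

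**Figure D3:**
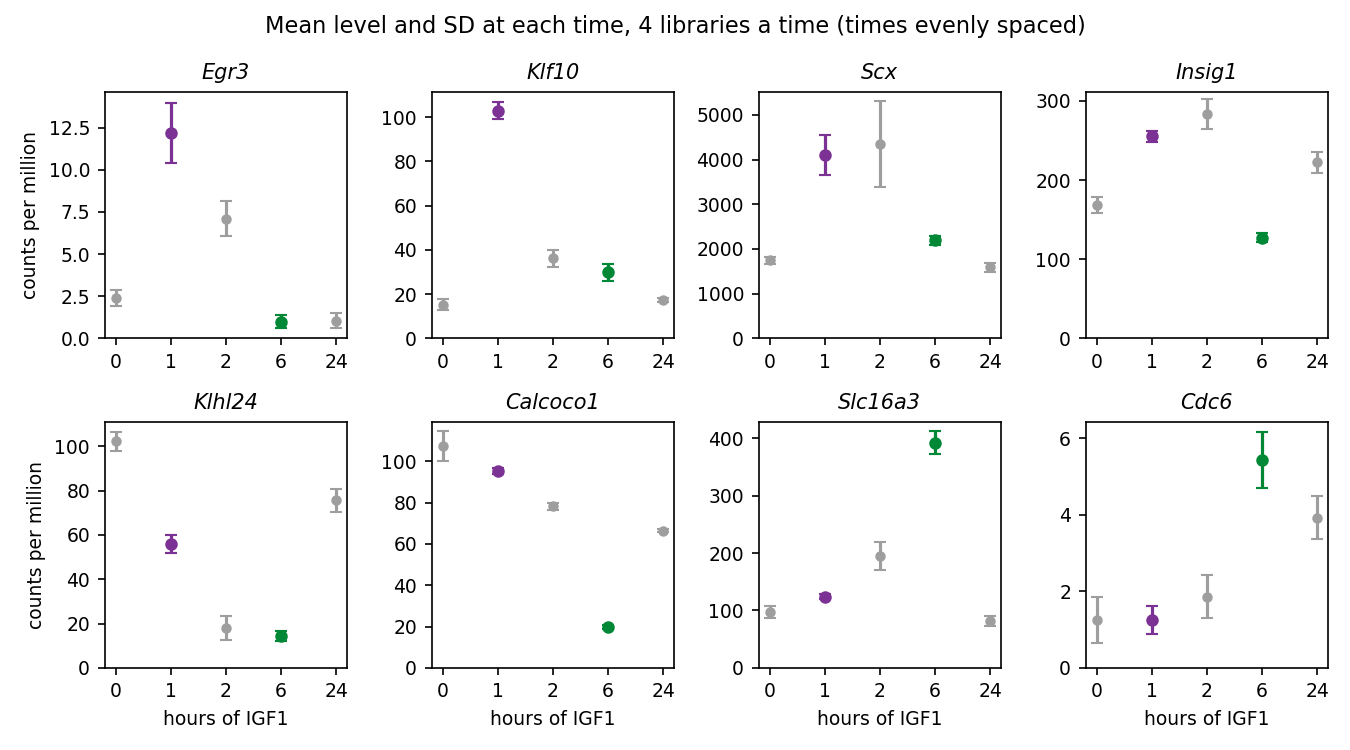
Mean levels (CPM, linear axes from 0) with SD over 4 libraries at each of the 5 times for 8 genes, with 1 h in purple, 6 h in green and the other times in grey; times are evenly spaced. Egr3, Klf10, Scx and Insig1 stand higher at 1 h than at 0 h and 6 h, Klhl24 and Calcoco1 are lowest at 6 h (14.3 and 19.7 CPM), and Slc16a3 and Cdc6 are highest there (392 and 5.43 CPM).

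FoxO targets, genes that FoxO factors are known to activate when AKT is quiet, moved both ways. Of 30 tested, 11 rose and 10 fell (36.7% and 33.3%, against 22.6% and 21.9% of all genes tested), with a median of 0.05. Tcp11l2 fell from 28.8 ± 2.30 CPM to 6.57 ± 1.23 CPM, and Ypel3 from 66.7 ± 2.18 CPM to 18.9 ± 1.14 CPM. Klhl24, a ubiquitin ligase adaptor, read 61.6, 55.2, 52.2 and 54.4 CPM at 1 h and 12.4, 12.4, 16.3 and 16 CPM at 6 h (-1.97 ± 0.089, adjusted p = 6.57e-14). It had stood at 102 ± 4.18 CPM before IGF1 and was at 75.8 ± 5.19 CPM at 24 h. Pdk4, which restrains pyruvate oxidation, fell by 1.62 ± 0.15. Other members rose between the same times. The largest rise, by 1.5 on the log2 scale, was that of Bnip3, which is also counted in the glycolysis and hypoxia list below. Pnrc1 and Bbc3 are given as further examples and do not stand for all members that rose. Pnrc1, a nuclear receptor coregulator, went from 18.9 ± 1.04 CPM to 40.5 ± 2.62 CPM, having been 70.0 ± 1.75 CPM at 0 h. The pro-apoptotic gene Bbc3 went from 4.49 ± 0.426 CPM to 8.24 ± 1.11 CPM, with 17.1 ± 1.71 CPM at 0 h. Their differences were 1.10 ± 0.074 and 0.88 ± 0.14. Both levels at 6 h lay above 1 h and below 0 h. Irs2, an adaptor of the IGF1 and insulin receptors, did not pass the test (0.24 ± 0.14, adjusted p = 0.186); its means were 38.0 ± 2.57 CPM at 0 h, 7.59 ± 1.18 CPM at 1 h and 8.90 ± 1.47 CPM at 6 h.

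Autophagy and lysosome genes mostly fell: 16 of 23 (69.6%, against 21.9% of all genes tested), while 2 rose. Their median was -0.19, and none changed 2-fold. The members that rose were Atg5, of the conjugation system that lipidates LC3 (0.29 ± 0.07), and the initiating kinase Ulk1 (0.16 ± 0.064), whose call was lost in 9 alternatives. Gabarapl1, an LC3-family protein of the autophagosome membrane, gave 123, 129, 124 and 129 CPM at 1 h and 61.3, 60.5, 73.9 and 66.6 CPM at 6 h (-0.94 ± 0.058). Map1lc3b went from 157 ± 5.58 CPM to 100.1 ± 6.10 CPM, and Wipi1, which binds the forming autophagosome, from 121 ± 8.79 CPM to 79.8 ± 5.07 CPM. The lysosomal calcium channel Mcoln1 (-0.44 ± 0.059), the cargo receptor Sqstm1 (-0.39 ± 0.046) and Map1lc3a (-0.34 ± 0.062) fell by less. No pair of groups overlapped among these 6 genes.

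Genes of glycolysis and the hypoxia response gave the highest median of the lists, 0.97. Of 32 tested, 26 rose (81.2%, against 22.6% of all genes tested) and 3 fell, and 14 of the 26 rose at least 2-fold. Car12, a membrane carbonic anhydrase (chr9:66713686-66766845, mm10), read 5.83, 3.23, 2.27 and 4.89 CPM at 1 h and 34.1, 33.4, 29.3 and 31.2 CPM at 6 h. The difference of 3.01 ± 0.21 was the largest rise by the naming rule (adjusted p = 9.56e-07). Egln3, a prolyl hydroxylase that marks HIF alpha subunits for destruction, rose from 7.65, 6.01, 8.14 and 6.80 CPM to 36.2, 34.8, 36.5 and 32.8 CPM (2.29 ± 0.094, adjusted p = 3.96e-15). Slc16a3, the lactate exporter MCT4, measured 125, 127, 127 and 117 CPM and then 409.9, 399.7, 396 and 364 CPM (1.66 ± 0.048, adjusted p = 1.11e-17). The libraries of each group lay close together.

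Car9, a second membrane carbonic anhydrase, went from 6.03 ± 0.646 CPM to 17.4 ± 1.89 CPM. Bnip3, a mitochondrial protein of mitophagy, rose from 36.6 ± 6.18 CPM to 103 ± 2.67 CPM, and Pfkfb3, which makes the activator of phosphofructokinase, from 52.5 ± 5.43 CPM to 141 ± 4.71 CPM. These rises were 1.53, 1.5 and 1.42 on the log2 scale. The 3 members that fell were Pfkfb4, a second enzyme of the Pfkfb family (-0.57 ± 0.12), the peptide hormone gene Adm (-0.31 ± 0.047) and Ndrg1 (-0.28 ± 0.049). Ldha, lactate dehydrogenase A, was 656, 643, 667 and 682 CPM at 1 h and 1441, 1459, 1429 and 1445 CPM at 6 h, a 2.18-fold rise (adjusted p = 3.01e-16). Aldoa rose 1.56-fold to 1251 ± 34.8 CPM and Pkm 1.74-fold to 1819 ± 4.28 CPM. Pkm shares 12.9% of its exonic bases with another gene model on its own strand. At 24 h the means were 81.6 ± 9.5 CPM for Slc16a3, 6.38 ± 1.33 CPM for Egln3 and 601 ± 23.1 CPM for Ldha, next to 97.2 ± 10.3 CPM, 4.88 ± 0.351 CPM and 594 ± 12.4 CPM at 0 h. The cultures' oxygen and glucose were not measured in these files.

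Hypoxia-inducible factors bind a core of ACGTG. This core was searched on both strands in the 250 bases before the start of each gene in the RefSeq promoter table (GRCm38.p6), a motif chosen after the data were seen. It was present in 22.0% of 9515 promoters of genes tested and in 15 of the 30 list members with an entry. Of 127 genes that rose by 2-fold or more 18.9% held it, and of 186 that fell as much 15.1% did. In the circadian clock list 9 of 14 promoters held it. Further lists also stood above 22.0%, among them autophagy and lysosome (35.3%) and endoplasmic reticulum chaperones (35%). Other motifs were searched in the same promoters, and not all are given here. The core overlaps the E-box CACGTG, which was found in 8.48% of all and 3 of the 30. Windows of 80 bases from 5 members that rose show where the core lies, in capitals on either strand and written 5′ to 3′ on the strand of the gene.
Slc16a3, chr11:120948987-120949066, plus strand: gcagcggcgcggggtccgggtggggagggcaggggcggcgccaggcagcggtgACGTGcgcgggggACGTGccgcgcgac
Car9, chr4:43506946-43507025, plus strand: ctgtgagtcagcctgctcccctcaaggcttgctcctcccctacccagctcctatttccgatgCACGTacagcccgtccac
Ldha, chr7:46845724-46845803, plus strand: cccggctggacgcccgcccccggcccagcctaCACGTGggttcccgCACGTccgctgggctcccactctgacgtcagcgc
Pfkfb3, chr2:11553930-11554009, minus strand: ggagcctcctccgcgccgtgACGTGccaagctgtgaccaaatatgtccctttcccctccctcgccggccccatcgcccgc
Bnip3, chr7:138909567-138909646, minus strand: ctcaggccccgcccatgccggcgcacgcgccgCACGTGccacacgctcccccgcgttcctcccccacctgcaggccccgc
The windows cover positions -80 to -1 from the start site, and -140 to -61 in Bnip3. Slc16a3 and Ldha hold the core in 2 places, and 1 of the places in Ldha and that in Bnip3 lie inside a CACGTG. Such matches describe the sequence and were not measured as binding.

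Several other leading risers are in no list. Mgarp, a mitochondrial protein, went from 3.94, 5.56, 4 and 4.25 CPM to 19.7, 19.0, 18.2 and 19.1 CPM (2.10 ± 0.12). Higd1a, a hypoxia-inducible protein of the inner mitochondrial membrane, went from 52.7 ± 4.12 CPM to 168 ± 3.26 CPM. Stc1, a secreted glycoprotein hormone, went from 1.57 ± 0.137 CPM to 5.79 ± 0.152 CPM (1.87 ± 0.18). Apln, the precursor of the peptide hormone apelin, measured 12.3, 8.23, 11.5 and 14.5 CPM at 1 h and 52.6, 57.2, 43.3 and 45.8 CPM at 6 h (2.10 ± 0.14, adjusted p = 3.97e-07). The receptor gene Agtr2, for angiotensin II, rose by 1.70 ± 0.17 and Gpr35, an orphan receptor, by 1.99 ± 0.19. Spon2, a secreted matrix protein, went from 27.6 ± 2.76 CPM to 86.3 ± 11.1 CPM. Plekhg4, a guanine nucleotide exchange factor, rose by 2.54 ± 0.31 from 1.03 ± 0.556 CPM, and Tmem26, a membrane protein, by 2.25 ± 0.18 from 3.03 ± 0.707 CPM. No pair of groups overlapped here, which the naming rule required.

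DNA replication genes rose while genes of mitosis mostly did not pass the test. Of 34 genes of G1 and S phase, 27 rose (79.4%, against 22.6% of all genes tested) and 1 fell, with a median of 0.49. Cdc6, which loads the replicative helicase onto origins, gave 1.53, 0.794, 1.09 and 1.59 CPM at 1 h and 4.96, 4.67, 5.98 and 6.12 CPM at 6 h (2.13 ± 0.22, adjusted p = 3.33e-08). Helicase subunits followed: Mcm3 from 10.4 ± 0.76 CPM to 26.2 ± 2.92 CPM, Mcm5 from 7.45 ± 0.747 CPM to 16.7 ± 1.36 CPM and Mcm2 from 14.4 ± 1.86 CPM to 28.8 ± 1.96 CPM. Orc1, of the origin recognition complex, went from 1.19 ± 0.46 CPM to 2.97 ± 0.412 CPM (1.28 ± 0.27) and shares 11.9% of its exonic bases with an antisense model. Uhrf1, which maintains DNA methylation at replication, read 6.83, 7.21, 5.32 and 5.59 CPM and then 18.1, 17.4, 18.9 and 20.7 CPM (1.59 ± 0.11). Ung, a uracil-DNA glycosylase outside the list, rose by 1.6 ± 0.19. The cyclin gene Ccnd1 was 334 ± 10.6 CPM at 1 h and 382 ± 21.3 CPM at 6 h (0.20 ± 0.046), with 21.9% of its exonic bases shared with Oraov1 on the other strand. Its call was lost with all 20 libraries in the fit. The lone member that fell was Rrm1, a subunit of ribonucleotide reductase (-0.42 ± 0.053).

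Of 27 genes of G2 phase and mitosis, 22 were not called, 1 rose and 4 fell, with a median of -0.06. The shares of 3.7% higher and 14.8% lower were below the 22.6% and 21.9% of all genes tested. Cdk1, the mitotic kinase, was 12 ± 0.59 CPM at 1 h and 14.6 ± 0.828 CPM at 6 h (0.28 ± 0.10). It was the member that rose, and its call was lost in 2 alternatives (adjusted p by edgeR 0.0575 with no count filter and 0.0749 without 6 h replicate 1). Ccnb2 (-0.62 ± 0.18), Foxm1 (-0.49 ± 0.13), Plk1 (-0.45 ± 0.17) and Kif20a (-0.32 ± 0.11) fell, at levels of 2 to 11 CPM, and Kif20a shares 31.8% of its exonic bases with Cdc23. The calls of Plk1 and Kif20a were lost in 9 and 6 alternatives. At 24 h the means were 23 ± 3.18 CPM for Ccnb2, 20.5 ± 1.29 CPM for Foxm1 and 35.4 ± 3.87 CPM for Cdk1. Among 10 inhibitors of cyclin-dependent kinases and RB family genes, 5 fell and 2 rose (50% and 20%). The inhibitor Cdkn1a measured 335, 341, 329 and 328 CPM at 1 h and 209, 204, 234 and 230.1 CPM at 6 h (-0.60 ± 0.048). Cdkn2b (-0.57 ± 0.06), Rb1 (-0.56 ± 0.084), Cdkn1c (-0.51 ± 0.14) and Rbl2 (-1.0 ± 0.07, 8.49% of exonic bases shared with Aktip) fell as well. The call of Cdkn1c was lost with all 20 libraries in the fit. Rbl1, a pocket protein like Rb1 and Rbl2, rose (0.47 ± 0.11), as did the inhibitor Cdkn1b (0.31 ± 0.061).

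**Figure D4:**
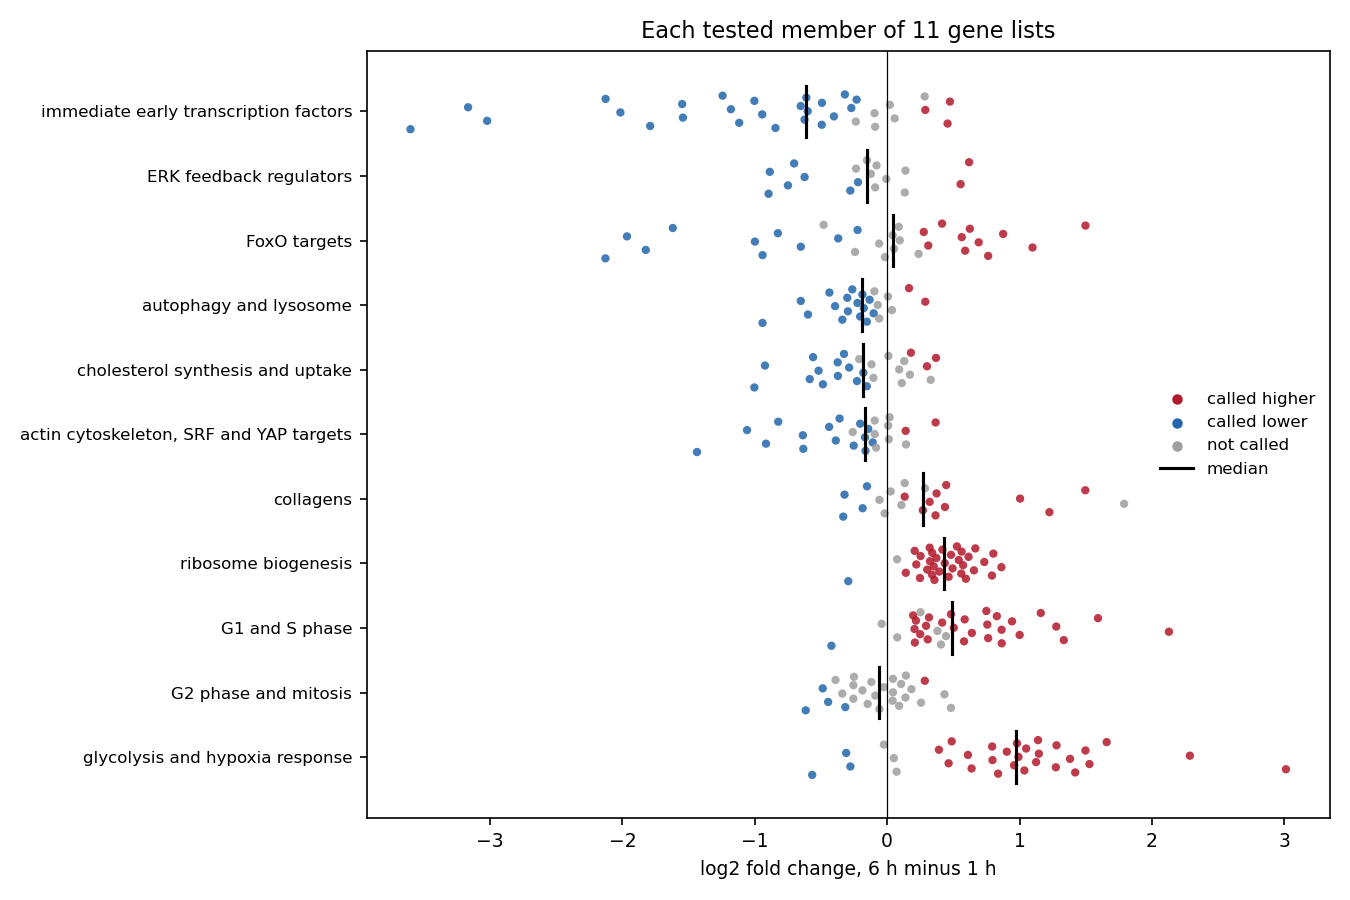
Each point is the log2 fold change of 1 tested member of 11 gene lists, coloured red where called higher at 6 h, blue where called lower and grey otherwise, with a black bar at the median. The medians run from -0.61 in immediate early transcription factors to 0.97 in glycolysis and hypoxia response, and FoxO targets spread from -2.13 to 1.5 around a median of 0.05.

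Ribosome biogenesis genes rose in near unison, with 32 of 34 higher (94.1%) and a median of 0.43, yet none reached 2-fold. Rrp12, a ribosome maturation factor, gave 29.0, 31.4, 31.7 and 29.8 CPM at 1 h and 59.3, 52.3, 47.6 and 62.6 CPM at 6 h (0.86 ± 0.076). Dkc1, the pseudouridine synthase of small nucleolar particles, went from 32.5 ± 3.23 CPM to 56.6 ± 5.61 CPM, and Polr1a, the largest subunit of RNA polymerase I, from 52.5 ± 4.37 CPM to 83.4 ± 4.74 CPM. Wdr12 (0.79), Nop16 (0.73) and the methyltransferase Fbl (0.66) rose likewise. Nop56 went from 87.5 ± 3.07 CPM to 115 ± 6.04 CPM, with 56.6 ± 1.68 CPM at 0 h. The member that fell was Ubtf, an RNA polymerase I factor (-0.29 ± 0.046). Ribosomal protein genes did not share the pattern. Of 41, 31 were not called, 6 rose and 4 fell, from -0.29 to 0.28. The shares of 14.6% higher and 9.76% lower were below the 22.6% and 21.9% of all genes tested. Rpl30 (0.28 ± 0.065), Rpl11 (0.21 ± 0.051), Rpl14 (0.19 ± 0.043) and Rps27a (0.18 ± 0.051) rose, and Rpl10a (-0.29 ± 0.047), Rpl4 (-0.18 ± 0.04), Rps14 (-0.11 ± 0.045) and Rpl3 (-0.10 ± 0.041) fell. The calls of Rpl3 and Rps14 were lost in 11 and 8 alternatives. Scaling by library totals alone gave 13 higher and 2 lower, and a fit of all 20 libraries gave 1 of each. Reads of these genes can also be shared with processed pseudogenes.

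Enzymes of nucleotide and polyamine synthesis rose in 15 of 23 cases (65.2%, against 22.6% of all genes tested), with a median of 0.40. Cad, the enzyme of the opening steps of pyrimidine synthesis, measured 105, 101, 105 and 74.6 CPM at 1 h and 196, 176, 166 and 179.9 CPM at 6 h (0.89 ± 0.11). In that gene 1 h replicate 4 was lowest. Impdh2, of guanine nucleotide synthesis, went from 43.9 ± 1.91 CPM to 76.5 ± 1.72 CPM and Srm, spermidine synthase, from 133 ± 7.20 CPM to 231 ± 16.4 CPM. Atic (0.68), Dhodh (0.71) and Gart (0.58, with 17.0% of exonic bases shared with an antisense model) rose too. Paics, an enzyme of the same purine pathway as Gart and Atic, fell (-0.57 ± 0.049), and shares 10.9% of its exonic bases with Ppat on the opposite strand.

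The Atf4 programme of amino acid supply rose in 22 of 35 genes and fell in 5, with a median of 0.18. These were 62.9% and 14.3%, against 22.6% and 21.9% of all genes tested. Chac1, which degrades glutathione, went from 48.3 ± 4.06 CPM to 91.1 ± 4.11 CPM, against 87.9 ± 6.67 CPM at 0 h. Shmt2 (0.61), Psat1 (0.58) and Aldh18a1 (0.60), enzymes of glycine, serine and proline synthesis, each rose about 1.5-fold, as did the stress transcription factor Ddit3 (0.53, 7.64% of exonic bases shared with Mars). Slc6a9, a glycine transporter, fell from 37.5 ± 5.81 CPM to 21.9 ± 2.41 CPM. The other 4 that fell were the transcription factors Cebpb (-0.49 ± 0.11) and Atf5 (-0.15 ± 0.051, lost in 5 alternatives), the arginine transporter Slc7a1 (-0.26 ± 0.064) and the serine synthesis enzyme Phgdh (-0.16 ± 0.046). The call of Phgdh was lost with all 20 libraries in the fit.

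Protein folding genes rose widely but modestly. In the endoplasmic reticulum list 21 of 24 rose (87.5%, against 22.6% of all genes tested) and 1 fell, with a median of 0.27. Hspa5 (BiP), the central chaperone of that compartment, read 1836, 1969, 1886 and 1860.2 CPM at 1 h and 2829, 2829, 3045 and 3021 CPM at 6 h (0.63 ± 0.043, adjusted p = 2.67e-11). Hyou1, a cochaperone, went from 218 ± 13.6 CPM to 416 ± 18.3 CPM, Creld2 from 54.5 ± 1.78 CPM to 105 ± 5.68 CPM and Manf from 159 ± 3.65 CPM to 267 ± 12.9 CPM. Atf6, a sensor of unfolded protein, fell (-0.27 ± 0.05). Sdf2l1 and Dnajb9 rose by 0.77 and 0.57. In the list of heat shock proteins and proteasome subunits 19 of 25 rose (76.0%) and 2 fell, with a median of 0.32. Hspd1, the mitochondrial chaperonin, rose from 201 ± 10.9 CPM to 340.2 ± 8.97 CPM, and its partner Hspe1 by 0.44. The chaperonin subunits Cct3 (0.51) and Cct8 (0.46, 8.01% shared with Usp16) and the proteasome genes Psmd14 (0.65) and Psmc4 (0.48) rose as well. The DnaJ cochaperones Dnajb1 (-0.33 ± 0.056) and Dnaja1 (-0.19 ± 0.055, 10.5% of exonic bases shared with Smu1) fell. The call of Dnaja1 was lost with all 20 libraries in the fit.

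Among cholesterol genes more fell than rose, and among fatty acid genes more rose than fell. Of 25 genes of cholesterol synthesis and uptake, 13 fell and 3 rose (52.0% and 12%), with a median of -0.18. Beside both lists stand the shares of all genes tested, 21.9% lower and 22.6% higher. Insig1, which retains the sterol sensor in the endoplasmic reticulum, went from 255, 265, 248 and 254 CPM to 131, 120.3, 132 and 126 CPM, a fall by 1.0 ± 0.046 (adjusted p = 2.15e-14). Its mean was 168 ± 9.99 CPM at 0 h and 283 ± 19.1 CPM at 2 h. The synthesis enzyme Hmgcs1 (-0.59 ± 0.047, 16% of exonic bases shared with an antisense model), the sterol carrier Stard4 (-0.52 ± 0.05) and Sc5d (-0.49 ± 0.053) fell too. The synthesis enzymes Nsdhl (0.37 ± 0.055), Mvk (0.30 ± 0.064) and Acat2 (0.18 ± 0.063, lost in 4 alternatives) rose. In fatty acid synthesis 8 of 15 rose and 3 fell (53.3% and 20%), with a median of 0.13. Acss2, which makes acetyl-CoA from acetate, rose from 12.3 ± 1.3 CPM to 23 ± 0.485 CPM, and Elovl6, an elongase, from 47.6 ± 5.04 CPM to 87.0 ± 3.40 CPM. Acaca (0.39 ± 0.073) and Acly (0.37 ± 0.048), of the same route, rose, whereas Fasn, fatty acid synthase, fell (-0.35 ± 0.076) with overlapping groups. Acsl3 (-0.37 ± 0.071, 5.22% of exonic bases shared on its own strand) and the desaturase Fads1 (-0.26 ± 0.045) fell too.

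**Figure D5:**
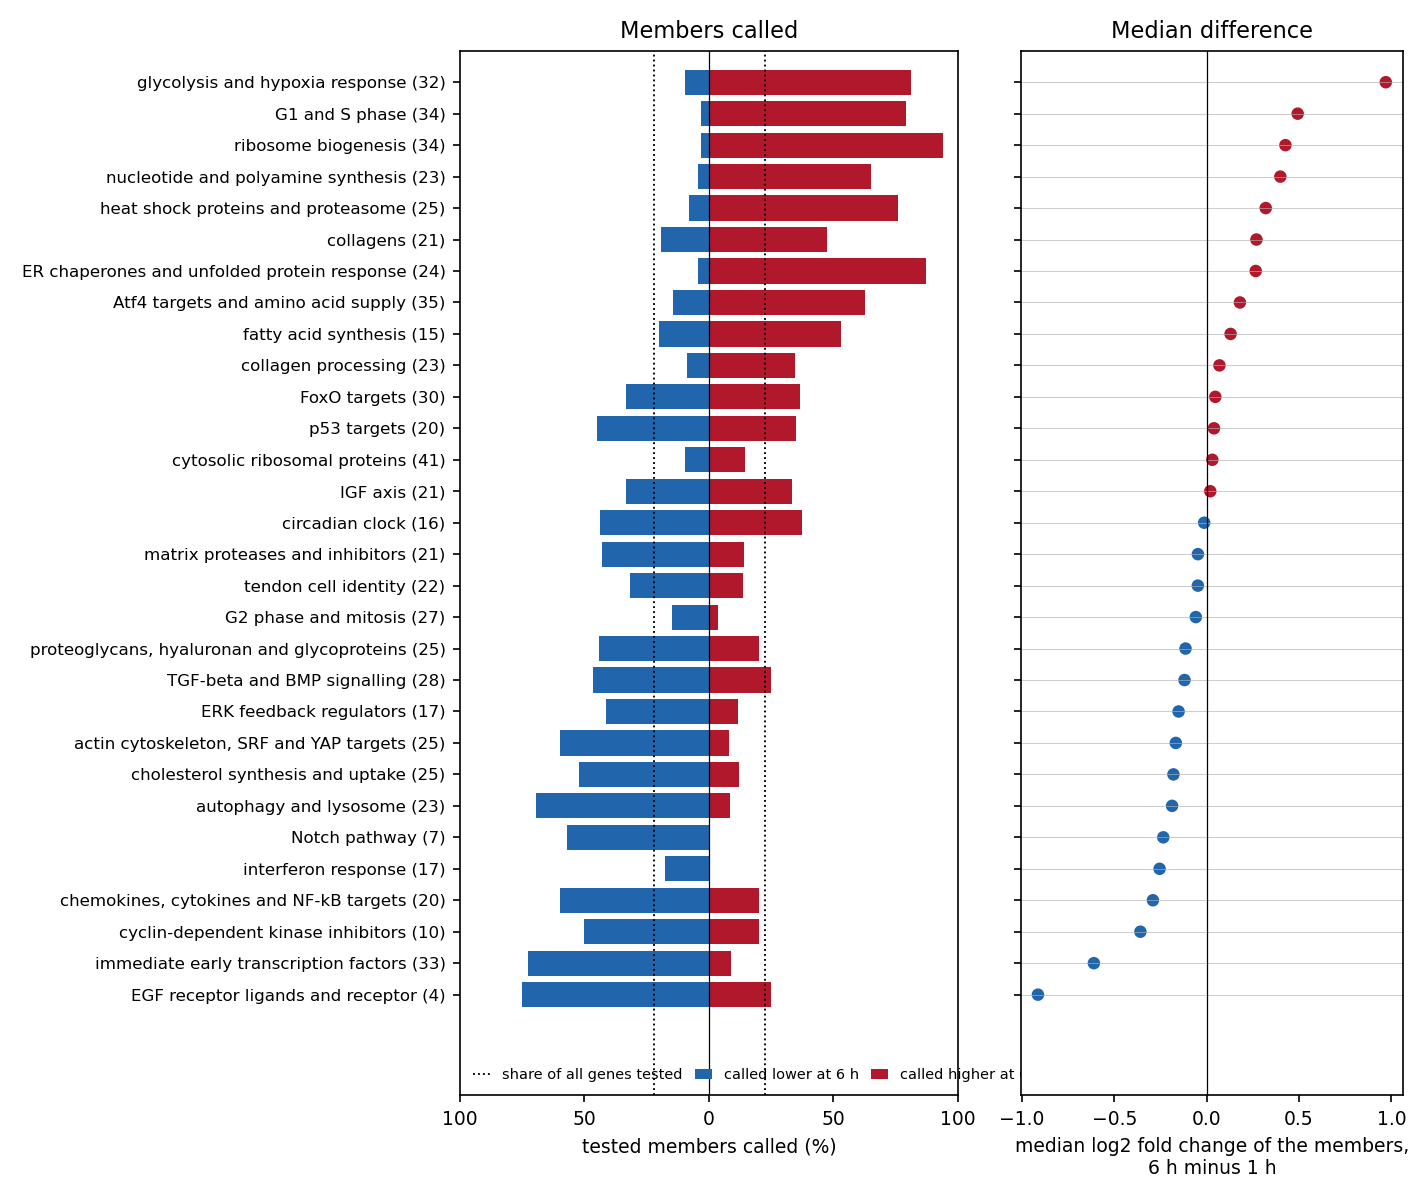
For 30 gene lists, with the number of tested members in brackets, bars give the share of members called higher (red, to the right) and lower (blue, to the left) at 6 h, beside dotted lines at the shares of all genes tested (22.6% and 21.9%); the right panel gives the members' median log2 fold change. Lists are ordered by median, from EGF receptor ligands and receptor (-0.91) to glycolysis and hypoxia response (0.97).

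Among tendon genes the transcription factor Scx (scleraxis, chr15:76457452-76459458, mm10) changed most after Egr2. It read 3802, 4158, 4722 and 3739 CPM at 1 h and 2329, 2179, 2168 and 2094 CPM at 6 h, a 1.87-fold fall (log2 fold change -0.90 ± 0.063, adjusted p = 5.86e-09). Its mean was 1741 ± 82.4 CPM at 0 h. Mkx, a homeobox factor of tendon, fell by 0.25 ± 0.052 from 189.7 ± 7.81 CPM. The list as a whole gave 7 lower and 3 higher of 22. These are 31.8% and 13.6%, against 21.9% and 22.6% of all genes tested. Tnmd, a marker of mature tenocytes, did not pass the test (165, 186, 221 and 202 CPM and 238, 271, 177 and 194 CPM, adjusted p = 0.415). Neither did Col1a1, with 26648 ± 3049.9 CPM at 1 h and 26304 ± 1414 CPM at 6 h (-0.02 ± 0.073, adjusted p = 0.86). Col1a2 was -0.15 ± 0.054 with overlapping groups, and its call was lost in 8 alternatives. Over all alternatives 3 to 8 members of the list were lower.

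Among collagen genes 10 of 21 rose and 4 fell, with a median of 0.27. These were 47.6% and 19.0%, against 22.6% and 21.9% of all genes tested. Col6a3, the long chain of the beaded type VI collagen, gave 520.1, 454, 493 and 420.1 CPM at 1 h and 1208, 1193, 849 and 1165 CPM at 6 h (1.23 ± 0.13, adjusted p = 2.86e-04). Its partner Col6a2 rose by 0.44 ± 0.07. Col5a3 went from 19.8 ± 0.91 CPM to 56.1 ± 2.94 CPM, Col27a1 from 9.57 ± 1.18 CPM to 19.2 ± 2.46 CPM and Col3a1 from 2187 ± 119 CPM to 2832 ± 125 CPM. Col5a1 (0.32 ± 0.083) and Col18a1 (0.45 ± 0.14) rose by less, and the call of Col18a1 was lost in 5 alternatives. Besides Col1a2 the members that fell were Col5a2 (-0.33 ± 0.05), Col11a1 (-0.32 ± 0.054) and Col8a1 (-0.19 ± 0.05). Of 23 collagen processing genes, 8 rose and 2 fell (34.8% and 8.7%). The lysyl hydroxylases Plod2 (0.93 ± 0.053, 9.32% of exonic bases shared with an antisense model) and Plod1 (0.26 ± 0.041), the prolyl hydroxylase subunit P4ha2 (0.61 ± 0.044), the procollagen protease Adamts14 (0.95 ± 0.091) and the crosslinking enzyme Loxl2 (0.49 ± 0.042) rose. Lox, the main lysyl oxidase, fell from 13221 ± 391 CPM to 10897 ± 215 CPM (-0.28 ± 0.041), and its relative Loxl3 fell by 0.18 ± 0.064, with 13.1% of its exonic bases shared with Htra2 and a call lost in 5 alternatives.

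Proteoglycans and glycoproteins gave 11 lower and 5 higher of 25 (44.0% and 20%, against 21.9% and 22.6% of all genes tested). Thbs1, thrombospondin 1, had 13176, 13246, 12598 and 11859 CPM at 1 h and 6457, 5975, 6139 and 5957 CPM at 6 h, a 2.07-fold fall (adjusted p = 8.49e-15). The leucine-rich proteoglycans Prelp (-0.56 ± 0.046) and Omd (-0.62 ± 0.17) fell. Members of the list that rose included the hyaluronan synthase Has2, from 7.67 ± 1.15 CPM to 13.6 ± 1.37 CPM, the hyaluronan-binding proteoglycan Vcan, from 112 ± 12 CPM to 218 ± 16.4 CPM and the hyaluronan receptor Cd44, from 178 ± 8.18 CPM to 265 ± 9.22 CPM. Their differences were 0.83, 0.97 and 0.57. Postn rose (0.51 ± 0.15), a call lost in 8 alternatives, and so did the microfibril gene Fbn1 (0.37 ± 0.068, 20.3% of exonic bases shared with an antisense model). Among 21 proteases and inhibitors 9 fell and 3 rose (42.9% and 14.3%). Adamts5, an aggrecan-cleaving protease, measured 1157, 1107, 898 and 967 CPM at 1 h and 483, 422, 546 and 511 CPM at 6 h (-1.07 ± 0.10). Mmp11 (-0.86 ± 0.077), Adamts9 (-0.76 ± 0.11) and Adamts1 (-0.46 ± 0.094) fell, and Mmp3 rose (0.53 ± 0.15) in a call lost in 6 alternatives. Adamts15 (0.40 ± 0.15, lost in 7 alternatives) and Mmp19 (0.28 ± 0.063, 22.8% of exonic bases shared with Tmem198b) rose too. A fit of all 20 libraries left 6 lower glycoproteins and 5 lower proteases.

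In TGF-beta and BMP signalling 13 of 28 genes fell and 7 rose (46.4% and 25%, against 21.9% and 22.6% of all genes tested). The share that rose was thus near that of all genes. Fst, the activin inhibitor follistatin, went from 65.9, 64.2, 67.3 and 70.6 CPM to 26.6, 22.7, 24.6 and 27.2 CPM (-1.40 ± 0.066, adjusted p = 3.59e-14). The ligands Bmp4 (-1.19 ± 0.091), Tgfb3 (-0.72 ± 0.044) and Bmp2 (-0.77 ± 0.22) and the corepressor Skil (-0.76 ± 0.056) fell. Grem1, a secreted BMP inhibitor, rose from 16.1 ± 2.32 CPM to 37.0 ± 1.38 CPM (1.21 ± 0.089).

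Actin cytoskeleton genes and targets of SRF and YAP fell in 15 of 25 cases and rose in 2, with a median of -0.17. These were 60.0% and 8%, against 21.9% and 22.6% of all genes tested. Ctgf (CCN2), a matricellular protein and YAP target, gave 458, 458, 316 and 413 CPM at 1 h and 132, 121, 202 and 153 CPM at 6 h (-1.44 ± 0.20). Fhl2, a LIM-domain coactivator, went from 137 ± 11.4 CPM to 65.6 ± 4.74 CPM, and Vcl, the focal adhesion protein vinculin, from 601, 556, 569.7 and 569 CPM to 319, 301, 298 and 299 CPM. Vcl shares 39.7% of its exonic bases with Ap3m1 on the opposite strand. Amotl2, Ankrd1 and Lats2, all known YAP targets, fell, with differences of -0.82, -0.64 and -0.63. The members that rose were Filip1l (0.37 ± 0.086) and the tropomyosin gene Tpm4 (0.14 ± 0.041, 6.30% of exonic bases shared with an antisense model). The call of Tpm4 was lost with all 20 libraries in the fit. Outside the list, the actin-binding Cald1 and the giant scaffold Ahnak were 2417 ± 86.9 CPM and 1673 ± 126 CPM at 1 h and 1428 ± 69.4 CPM and 1059 ± 160.3 CPM at 6 h. The differences were -0.76 ± 0.044 and -0.66 ± 0.11.

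SRF binds the CArG box. This motif was present on either strand in 1.16% of the 9515 promoters, in 5 of 20 members of the actin list with an entry and in 2 of 25 immediate early genes. The windows of 3 falling genes are shown with the box in capitals.
Dusp5, chr19:53529035-53529114, plus strand: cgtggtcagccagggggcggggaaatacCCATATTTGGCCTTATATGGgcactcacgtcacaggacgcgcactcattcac
Fhl2, chr1:43196812-43196891, minus strand: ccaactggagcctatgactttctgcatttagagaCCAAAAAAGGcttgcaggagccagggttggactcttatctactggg
Vcl, chr14:20929148-20929227, plus strand: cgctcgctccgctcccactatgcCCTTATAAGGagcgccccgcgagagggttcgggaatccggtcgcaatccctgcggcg
The window of Dusp5 (positions -110 to -31 from the start) holds 2 adjoining boxes, and those of Fhl2 (-130 to -51) and Vcl (-250 to -171) hold 1 each. Binding was not measured here.

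In the IGF axis itself 7 of 21 genes rose and 7 fell (33.3% each), with a median of 0.02. The shares of all genes tested were 22.6% and 21.9%. Igf1r, the receptor gene, measured 188, 189.6, 167 and 160.2 CPM at 1 h and 115, 105, 110.2 and 103 CPM at 6 h (-0.70 ± 0.057, adjusted p = 8.51e-10). The insulin receptor gene Insr fell by 0.37 ± 0.059. Pappa, a protease that frees IGF1 from its binding proteins, went from 27.1, 25.4, 26.7 and 27.2 CPM to 11, 11.3, 9.59 and 8.64 CPM (-1.39 ± 0.093). Igfbp5, a secreted IGF binding protein (chr1:72857932-72874884), rose from 79.9, 62.8, 111 and 99.3 CPM to 267, 329.9, 277 and 274 CPM (1.70 ± 0.19, adjusted p = 4.15e-04). Its mean was 893 ± 74.3 CPM at 24 h. Igfbp2 fell by 0.40 ± 0.082, and Tsc22d3, a leucine zipper protein induced by glucocorticoids and FoxO, by 0.42 ± 0.069. The adaptor Irs1 went from 42.8 ± 3.60 CPM to 53.7 ± 2.91 CPM (0.33 ± 0.066; adjusted p = 0.314 with all 20 libraries in the fit), and Pik3r3, a regulatory subunit of PI3 kinase, rose by 0.49 ± 0.086. Endogenous Igf1 was 192 ± 13.3 CPM at 1 h and 187 ± 6.68 CPM at 6 h, a difference that did not pass the test (-0.04 ± 0.05, adjusted p = 0.606).

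Circadian clock genes moved both ways: 6 of 16 rose and 7 fell (37.5% and 43.8%), with a median of -0.01. Of all genes tested 22.6% rose and 21.9% fell. Npas2, a partner of Arntl in the activating arm, rose from 2.44 ± 0.806 CPM to 6.07 ± 0.986 CPM and the repressor Ciart from 5.62 ± 0.717 CPM to 10.1 ± 0.789 CPM. Per3 (-1.26 ± 0.14) and Per2 (-0.83 ± 0.11), of the repressive arm, the nuclear receptor Nr1d2 (-1.08 ± 0.065) and the output factor Dbp (-1.08 ± 0.21) fell. Dbp shares 29.3% of its exonic bases with Sphk2. Among 20 p53 targets 9 fell and 7 rose (45% and 35%). Besides Cdkn1a, the kinase gene Plk3 went from 50.2 ± 3.46 CPM to 22.2 ± 2.57 CPM (-1.17 ± 0.079), the pro-apoptotic Pmaip1 (-0.95 ± 0.15) and the death receptor Fas (-0.60 ± 0.12) fell, and Gdf15 rose (0.72 ± 0.25) with overlapping groups and a call lost in 5 alternatives.

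Of 17 interferon response genes 3 fell (17.6%, below the 21.9% of all genes tested) and none rose. Ifit2 read 70.1, 76.3, 65.4 and 70.7 CPM at 1 h and 19.0, 27.1, 27.3 and 27.2 CPM at 6 h (-1.49 ± 0.10, adjusted p = 3.43e-09). Ifit3 varied widely between libraries, 34.1, 56.7, 51.2 and 37.5 CPM against 8.05, 28.7, 9.70 and 17.7 CPM (-1.5 ± 0.42). Its call was lost in 6 alternatives, and that of Ifih1 (-0.64 ± 0.22) in 7.

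Markers of other cell types were measured in the same fit. The 13 tested macrophage markers gave no call in either direction, though all had differences below 0 (-0.39 to -0.02, median -0.12). Their summed level was 249 to 553 CPM at 1 h and 291 to 468 CPM at 6 h. Macrophage transcripts were thus present in all 8 libraries, and the ranges of the groups overlapped. Of 10 endothelial markers 3 were tested, and Tek alone fell. The summed endothelial level was 38.9 to 46.3 CPM at 1 h and 10.8 to 14.9 CPM at 6 h, most of it Tek. For Schwann cells, 3 of 6 tested markers fell (50%, against 21.9% of all genes tested). These were Pmp22 (-0.41 ± 0.045), Prx (-0.62 ± 0.14) and Mbp (-0.25 ± 0.09, lost in 6 alternatives). The other 3 were not called, and the differences of the 6 ran from -0.62 to 0.70. The summed Schwann cell level was 352 to 380 CPM at 1 h and 264 to 296 CPM at 6 h, mostly Pmp22. Cspg4 fell among 7 pericyte markers (-0.26 ± 0.10, lost in 8 alternatives). The chondrocyte and osteoblast markers Sox9 (-0.67 ± 0.09) and Matn3 (-0.62 ± 0.21, lost in 5 alternatives) fell and Runx2 rose (0.39 ± 0.077). Muscle markers were near 0, with Myh1 at 0.477 ± 0.273 CPM and 1.47 ± 0.297 CPM and Acta1 at 2.78 ± 0.399 CPM and 1.64 ± 0.819 CPM, whose call was lost in 6 alternatives. Trp63, a keratinocyte factor, fell by 1.73 ± 0.27 from 2.84 ± 0.415 CPM, while Cdh1, Krt1 and Krt5 had no counts in any of the 8 libraries. No lymphocyte marker passed the count filter and none of 3 tested adipocyte markers was called, though 1 was in 6 alternatives. The part of these markers in the other results was not tested.

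Gene and transcript lengths were compared between the large changes and all genes tested. The median genomic span was 23.4 kb for all genes, 20.9 kb for genes at least 2-fold higher at 6 h and 27.2 kb for those at least 2-fold lower. The median number of exons in the chosen transcript was 8, 6 and 7, and the median 3′ untranslated region was 1072, 1263 and 1252 bases long. TATTTAT occurred 0.296 times per kb of 3′ untranslated region in all genes, 0.257 times in the higher and 0.380 times in the lower set. These are descriptions of the sets, without a test.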

How the data were processed

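Total RNA of tail-tendon tenocytes was sequenced in 20 libraries, of which the 8 at 1 h and 6 h were compared, 4 in each group. The authors deposited whole-number read counts per gene for 29986 genes, which were used as they stand. The tools listed in the submitters' processing notes are STAR, FastQC and edgeR, with mm10 as the build. No source used here gives the counting tool, its annotation or its use of strand. The authors' own deposited comparison table, with its log2 fold changes and p-values, was not used.

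Genes with enough counts in the 8 libraries (filterByExpr of edgeR 4.0.16 in R 4.3.3, with limma 3.58.1) numbered 13550 and held 99.9% of the counts. TMM factors came from all 20 libraries, and edgeR's robust quasi-likelihood test was fitted to the 8, with Benjamini-Hochberg adjustment and a threshold of 0.05. CPM were computed from the counts after TMM. The script was tested on simulated data with known changes. Alternatives were RLE scaling, TMM over the 8 libraries, no count filter, a minimum of 1 CPM in 4 libraries, DESeq2 1.42.0, a replicate block, fits of 20 or 16 libraries, each library left out and, chosen later, library totals only.

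The comparison and the 39 gene lists (801 entries, 738 tested, 9 of the lists being markers of other cell types) were chosen with earlier results of these data known. Genes were named by rule: up to 15 a direction with the largest change, at least 5 CPM in the higher group and groups that did not overlap, leaving out unnamed gene models; up to 6 called members a list; up to 5 abundant genes a direction changed at least 1.5-fold; and 17 genes of tendon and the IGF1 response. Coordinates and exonic overlaps are from the mm10 annotation GENCODE M21, and promoter sequences from RefSeq (GRCm38.p6), matched by symbol to 9515 of the genes tested.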

Additional observations from a re-analysis of the deposited data

Results flagged for a closer look

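Among the 248 genes named above, each group of 4 libraries was searched for a library that stood apart from the other 3, with a gap to the nearest relative to the group's range above Dixon's 95% critical value. Of 496 groups, 27 held one. Chance alone would mark about 1 group in 20. The library 1 h replicate 1 stood apart in Hspe1 (41.6 CPM against 46.4 to 46.7), Kif20a (10.2 CPM against 9.28 to 9.42) and Sc5d (163 CPM against 188 to 193). Likewise 1 h replicate 2 stood apart in Dnajb1 (66.4 CPM against 63.1 to 63.3), Impdh2 (46.8 CPM against 42.8 to 43.2) and Plk1 (3.74 CPM against 4.57 to 4.71). By the same measure 1 h replicate 3 stood apart in Cct3 (244 CPM against 224 to 226), Lox (12640.3 CPM against 13349 to 13490.2) and Sox9 (36.1 CPM against 29.8 to 30.8). Next, 1 h replicate 4 stood apart in Acaca (28.9 CPM against 32.9 to 33.6), Aldh18a1 (218 CPM against 255 to 259.7) and Cad (74.6 CPM against 101 to 105). Of the libraries, 6 h replicate 1 stood apart in Ifit2 (19.0 CPM against 27.1 to 27.3), Tgfb3 (230.5 CPM against 216 to 217) and Vcl (319 CPM against 298 to 301). Likewise 6 h replicate 2 stood apart in Car9 (20.2 CPM against 16.3 to 16.5), Col18a1 (47.4 CPM against 30.3 to 33.1), Igfbp5 (329.9 CPM against 267 to 277) and Ypel3 (20.5 CPM against 18.1 to 18.4). By the same measure 6 h replicate 3 stood apart in Aldoa (1303 CPM against 1229 to 1238), Col6a3 (849 CPM against 1165 to 1208), Dnajb9 (70.7 CPM against 57.2 to 58.9), Dusp5 (10.02 CPM against 6.08 to 6.42), Errfi1 (50.4 CPM against 38.1 to 38.7) and Klf6 (149.8 CPM against 129.7 to 131). Next, 6 h replicate 4 stood apart in Orc1 (2.36 CPM against 3.09 to 3.24) and Wdr12 (46.1 CPM against 42.2 to 42.5).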

How the results depend on the processing

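The counts of called genes held their size in all 17 alternatives run, staying within 1.5 times, and 0 of the 6028 called genes changed direction in any. The total of 6028 was 5999 with DESeq2's scaling in edgeR (RLE), 5901 with DESeq2, 5813 with no count filter, 5926 with a minimum of 1 CPM in 4 libraries, 6048 with 16 libraries and 4840 with all 20 libraries in the fit. TMM factors from the 8 libraries gave the same counts and the same called genes, so that alternative repeats the main fit and adds no separate check. Leaving out each library in turn gave 5319 to 5977 called genes, 188 to 227 at least 2-fold higher and 295 to 329 at least 2-fold lower. Of the genes called, 80% to 99.2% stayed called under the alternatives other than TMM over the 8. Scaling by library totals only, chosen after seeing the data, gave 3617 higher and 2479 lower genes and moved the median of all genes by 0.044. The main fit did not pair libraries by replicate number. Correlations of same-numbered deviations were 0.0831, -0.0418, -0.0215 and -0.0720. Values near 0 show no shared deviation but cannot tell whether the libraries were paired by design. A fit with the replicate block called 5741 genes.

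Among named genes that were not called, Col1a1 turned positive without 1 h replicate 1 (0.0180), without 1 h replicate 3 (0.0200), without 6 h replicate 3 (0.0122) and with library totals only (0.0254), and was lowest without 1 h replicate 4 (-0.101). Igf1 turned positive without 1 h replicate 4 (4.61e-05) and with library totals only (0.00738), with its lowest value without 1 h replicate 3 (-0.0624). Jun turned negative without 1 h replicate 2 (-0.0160) and without 6 h replicate 3 (-0.0366) and was highest without 6 h replicate 4 (0.0831). The named genes whose calls were lost follow, with the range of their adjusted p by edgeR. Without 1 h replicate 1 they were Acat2, Adamts15, Col18a1, Col1a2, Cspg4, Ifih1, Kif20a, Loxl3, Mbp, Mmp3, Notch2, Plk1, Postn and Rpl3 (0.0507 to 0.151). Leaving out 1 h replicate 2 they were Acta1, Adamts15, Atf5, Col18a1, Col1a2, Gdf15, Ifih1, Ifit3, Matn3, Mmp3, Notch2, Postn, Rpl3 and Ulk1 (0.0549 to 0.155). Without 1 h replicate 3 they were Acta1, Atf5, Ccl11, Col18a1, Col1a2, Cspg4, Gdf15, Ifih1, Ifit3, Loxl3, Mmp3, Notch2, Plk1, Postn, Rpl3, Rps14 and Ulk1 (0.0667 to 0.13). Leaving out 1 h replicate 4 they were Gdf15, Ifih1, Matn3, Plk1 and Rps14 (0.0512 to 0.105). Without 6 h replicate 1 they were Ccl11, Cdk1, Cspg4, Ifit3, Kif20a, Loxl3, Matn3, Mmp3, Plk1, Rpl3 and Rps14 (0.0504 to 0.149). Leaving out 6 h replicate 2 they were Acat2, Acta1, Adamts15, Ccl11, Col1a2, Cspg4, Gdf15, Kif20a, Mbp, Notch2, Plk1, Rpl3 and Ulk1 (0.0513 to 0.118). Without 6 h replicate 3 they were Adamts15, Col1a2, Gdf15, Ifih1, Ifit3, Kif20a, Loxl3, Mbp, Notch2, Postn, Rpl3, Rps14 and Ulk1 (0.0524 to 0.135). Leaving out 6 h replicate 4 they were Acat2, Acta1, Adamts15, Atf5, Col1a2, Cspg4, Ifih1, Ifit3, Matn3, Mbp, Plk1, Postn, Rpl3 and Rps14 (0.0514 to 0.153). With the replicate block they were Col18a1, Cspg4, Mmp3, Notch2, Plk1, Postn, Rpl3, Rps14 and Ulk1 (0.0502 to 0.0935). Scaling by library totals only lost Atf5, Col1a2, Cspg4, Ifih1, Kif20a, Loxl3, Mbp, Notch2, Plk1, Rpl3 and Rps14 (0.055 to 0.293). Testing with no count filter lost Adamts15, Cdk1, Ifit3, Kif20a, Plk1, Postn, Rpl3 and Ulk1 (0.0564 to 0.0771). Acta1 was lost without the 2 h libraries in a fit of 16 libraries (0.17), and Ulk1 with DESeq2 (0.0512) and with a minimum of 1 CPM in 4 libraries (0.0539). The fit of all 20 libraries lost the calls of Acat2, Acta1, Adamts15, Atf5, Ccl11, Ccnd1, Cdkn1c, Col18a1, Col1a2, Cspg4, Dnaja1, Dusp4, Il11, Irs1, Matn3, Mbp, Mmp3, Notch2, Phgdh, Postn, Rpl11, Rpl3, Rpl30, Rpl4, Rps14, Rps27a, Tpm4 and Ulk1 (0.05 to 0.469). The cause was not tested. Counts of list members, chosen for this check after seeing the data, moved over 1.5 times mainly in small counts: lower G2 and mitosis members were 4 (2 to 5 over the alternatives), lower interferon genes 3 (1 to 5), lower ribosomal proteins 4 (1 to 4) and higher cholesterol genes 3 (2 to 5). Depth limits what can be said of genes near the count filter, with levels of a few CPM.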
